A study of Mus musculus with 14 samples.

Results

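Matrix metalloproteases (MMPs) and their tissue inhibitors (Timps) were followed through 3 populations of mouse bone marrow cells, from animals with and without a breast tumour. The 9 genes were taken by symbol: the 6 proteases Mmp13, Mmp2, Mmp9, Mmp3, Mmp11 and Mmp14, and the 3 inhibitors Timp1, Timp2 and Timp3. They are 9 of 50600 genes in the bulk table and 9 of 32285 in the stromal tables, whereas 5 of them (Mmp2, Mmp11, Mmp14, Timp2 and Timp3) are among the 11992 genes of the progenitor table. The genes were chosen by their levels and differences in the bulk and stromal data, so those values are given as a description and support no independent claim.

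Mesenchymal stem cells (MSC), the stromal cells that support blood formation, were sequenced as bulk RNA: 4 samples without a tumour and 4 from mice that bore one. The sample titles of the second group name Py230, a mammary tumour line derived from a PyMT mouse. PyMT mice carry polyoma middle T, an oncogene under which mammary tumours arise. Marrow stromal cells were profiled cell by cell in 1 wild-type (WT) and 1 PyMT library, and hematopoietic stem and progenitor cells (HSPC) in 2 WT and 2 PyMT mice. The sources used here do not give strain, age, sex, tumour stage or sorting gates. They also do not say that the bulk samples came from separate animals, and p-values cover only the spread between libraries, in part perhaps a technical one.

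MMPs are zinc-dependent endopeptidases that cut collagens and other matrix proteins, as well as growth factors and receptors at the cell surface. Most are made as inactive precursors and need another protease to release the catalytic site, and Timps block that site. In bone, MMPs take part in matrix turnover and in the release of factors held in the matrix. RNA levels say nothing of how much of a protease is active.

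The bulk libraries held 4301375 to 9811251 counted reads. The stromal libraries kept 2190 WT and 3191 PyMT cells, and the HSPC libraries held 16365550 to 28570481 unique molecular identifiers (UMIs) per mouse. The titles of all 4 HSPC samples carry a PyMT prefix, and the genotype labels were used. Cell barcodes were shared by 2 cells of the stromal libraries and by 8 to 23 cells of each pair of HSPC libraries. In bulk, 0 of 8 markers of leptin receptor (LepR) positive mesenchymal cells had a log2 change above 0 with Py230. Of these 8, edgeR called 5 lower at an adjusted p under 0.05, against 2.74% of all tested genes. The 8 summed to 30155 to 32265 CPM (reads of a gene per 1e+06 counted reads) without a tumour and 16091 to 19206 with Py230. Summed fibroblast markers were higher with Py230 (152 to 180 CPM against 305 to 416). Of these 8 markers, 5 were tested and 3 had a log2 change above 0. Among the 5, edgeR called 1 higher and DESeq2 called Dcn. In the stromal libraries, Dcn and S100a4 were highest in the tendon-like and not the fibroblast-like cluster. Summed sinusoidal endothelial markers were higher with Py230 as well (35.4 to 52.7 against 58.5 to 115 CPM). So were those of arterial or capillary endothelium (21.8 to 33.9 against 34.7 to 113 CPM, with Gja5 called). In bulk samples, fewer cells of a type and less RNA per cell cannot be told apart.

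Mmp13 lies on the plus strand of chromosome 9, from 7272514 to 7283331 (GRCm38, GENCODE M21), and Mmp3 lies on the same strand from 7445822 to 7455975. Mmp11 lies on the minus strand of chromosome 10, from 75923222 to 75936496. The 150 bases before their start sites are shown for 3 reasons: Mmp13 and Mmp11 were the members called in bulk, Mmp3 is a neighbour of Mmp13, and AP-1 and RUNX letters are classical elements of MMP promoters. Capitals mark the AP-1 letters TGANTCA and the RUNX letters TGTGGT, searched on both strands (RefSeq, GRCm38.p6, 5′ to 3′ on the strand of the gene). The RefSeq start used for Mmp11 lies inside the GENCODE span given for it, so its stretch does not precede the outer end of that span.
Mmp13, chr9:7272364-7272513, plus strand: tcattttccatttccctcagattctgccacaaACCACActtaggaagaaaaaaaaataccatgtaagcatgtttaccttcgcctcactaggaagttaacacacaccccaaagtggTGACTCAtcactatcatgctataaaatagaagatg
Mmp3, chr9:7445672-7445821, plus strand: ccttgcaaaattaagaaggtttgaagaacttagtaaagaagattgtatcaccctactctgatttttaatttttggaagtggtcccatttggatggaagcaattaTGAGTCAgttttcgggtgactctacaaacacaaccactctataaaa
Mmp11, chr10:75932503-75932652, minus strand: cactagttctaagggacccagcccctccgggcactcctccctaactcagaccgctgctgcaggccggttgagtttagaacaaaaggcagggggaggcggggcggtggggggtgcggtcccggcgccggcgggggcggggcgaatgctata

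In Mmp13 the first capitals are RUNX letters on the opposite strand, 118 to 113 bases before the start, and the second are AP-1 letters 35 to 29 bases before it. In Mmp3 the AP-1 letters lie 46 to 40 bases before the start. Mmp11 has no match to either motif in the 250 bases before its start. Promoters of 7 members are in the RefSeq table used; Mmp2 and Mmp9 are not in it. Of those 7, AP-1 letters occur in 2 (Mmp13 and Mmp3) and RUNX letters in 2 (Mmp13 and Mmp14). Over 32851 promoters of the same length, 6.75% hold the AP-1 and 14.1% the RUNX letters. The letters TTCNNNGAA (STAT, in 7.02% of promoters) and the NF-kB motif (in 4.11%) occur in none of the 7. These matches describe letters and show no binding.

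Among tumour-free bulk MSC, Mmp13 had the highest level per exon length of the 9 genes, 383 ± 41.7 CPM per kb (SD, n = 4). Timp2 followed at 59.8 ± 5.78 CPM per kb and Mmp14 at 42.6 ± 4.79, with no overlap between the libraries of the 3 genes. Timp1 (18.7 ± 4.71 CPM per kb) and Mmp2 (17.8 ± 6.45) overlapped in range. So did Timp3 (10.4 ± 4.21 CPM per kb) and Mmp11 (9.71 ± 0.726), and Mmp9 stood below them at 2.56 ± 0.854. Mmp3 was lowest at 0.335 ± 0.446 CPM per kb, from 0 to 14 reads a library.

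In bulk MSC, Mmp11 and Mmp13 were higher with Py230 in all 4 libraries than in any tumour-free library, while the other members either overlapped between groups or were too low to test. Of the 9 members, 8 passed the filter on low counts. Among these, 2 were called higher and 0 lower (edgeR quasi-likelihood test, Benjamini-Hochberg adjusted p under 0.05 over 16317 genes), against a background of 1.99% of all tested genes called higher, 2.74% called lower and 4.73% called in either direction. The same 2 members did not overlap between groups and were higher with Py230, which held for 5.36% of all tested genes (5.61% were lower without overlap). The contrast was used in choosing the members, and nothing is read from that count. Log2 fold changes of 7 of the 8 were above 0 with a median of 0.69, and the median of all tested genes was 0.04.

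**Figure D1:**
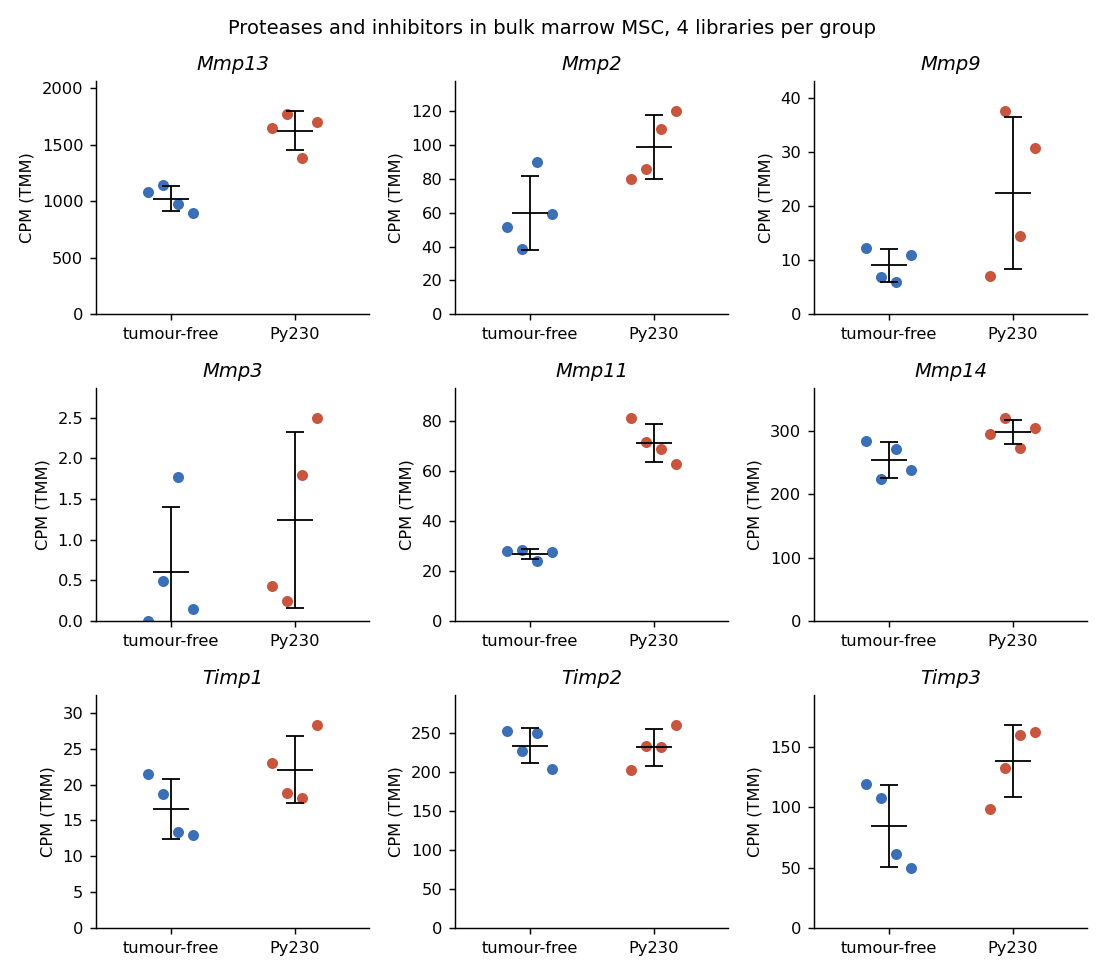
Level of each gene (y axis, TMM-normalised CPM from 0) in 4 tumour-free and 4 Py230 bulk MSC libraries; points are libraries, long ticks the mean and bars 1 SD. The 2 groups are separate for Mmp13 and Mmp11 and overlap for the other 7 genes.

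Mmp13 (ENSMUSG00000050578), collagenase-3, cuts fibrillar collagen. It stood at 1079, 1147, 974 and 895 CPM in tumour-free replicates 1 to 4. With Py230 it stood at 1644, 1774, 1381 and 1698 CPM. The lowest Py230 library, replicate 3, was above the highest tumour-free library. The means were 1024 ± 111 and 1624 ± 171 CPM (SD, n = 4 each), a log2 fold change of 0.67 (SE 0.12). The 14 alternative fits gave 0.59 to 0.73 and each kept the call. Summed osteoblast markers overlapped, at 1980 to 2988 CPM without and 736 to 2209 with a tumour. Of these 8 markers, edgeR called 2 lower, Phex and Omd. The log2 change of 3 of the 8 was above 0, and DESeq2 called 1 higher and 2 lower. Of 6 cartilage markers, edgeR called Acan and Sox9 lower. The log2 change of 1 of the 6 was above 0, and DESeq2 called 1 higher and 2 lower. The part of these cells in the Mmp13 level was not tested.

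Mmp11 (ENSMUSG00000000901), stromelysin-3, is unusual among secreted MMPs in being activated inside the cell by furin. Its level was 28.0, 28.3, 24.0 and 27.6 CPM in tumour-free replicates 1 to 4, against 81.1, 71.6, 68.7 and 62.8 CPM with Py230. No library of one group came near the other. The means of 27.0 ± 2.02 and 71.0 ± 7.63 CPM (SD, n = 4 each) differed by 1.40 on the log2 scale (SE 0.11), and each of the 14 alternative fits kept the call. Mmp11 shares 155 exonic bases with Chchd10 on the other strand, and the sources used here do not give the strand setting of the counting. Chchd10 itself had 0.949 ± 1.26 and 1.64 ± 0.609 CPM (SD, n = 4 each).

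The gelatinases, which degrade denatured and basement membrane collagen, were more variable. Mmp2 (ENSMUSG00000031740; chromosome 8, 92827291 to 92853420, plus strand) is gelatinase A. It had 51.8, 38.6, 89.9 and 59.1 CPM in tumour-free replicates 1 to 4 and 80.2, 85.8, 109 and 120 CPM with Py230. Tumour-free replicate 3 lay above Py230 replicates 1 and 2, so the groups overlapped. The difference was 0.72 (SE 0.24) on the log2 scale with an edgeR adjusted p of 0.146. It passed the threshold in 4 of 14 alternatives, among them the fit without tumour-free replicate 3 (adjusted p = 0.0120) and DESeq2 (adjusted p = 0.0301), over a range of 0.00163 to 0.564.

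Mmp9 (ENSMUSG00000017737; chromosome 2, 164940780 to 164955850, plus strand) is gelatinase B, which neutrophils and osteoclasts also make. Tumour-free replicates 1 to 4 gave 12.3, 6.99, 6.06 and 10.9 CPM, and Py230 replicates gave 7.11, 37.6, 14.5 and 30.8. Py230 replicate 1 lay among the tumour-free libraries and the other 3 above them. The log2 difference was 1.31 (SE 0.48, edgeR adjusted p = 0.203), and 1.58 without Py230 replicate 1 (adjusted p = 0.0281). DESeq2 gave an adjusted p of 0.0391, and the 14 alternatives ranged from 0.0281 to 0.642. Summed neutrophil markers (10 genes) overlapped, at 7.69 to 82.1 CPM without and 21.9 to 56.2 with a tumour, and 0 of 8 tested were called or had an unadjusted p under 0.05 by edgeR, or were called by DESeq2. Summed osteoclast markers (7 genes) overlapped too, at 36.4 to 61.1 and 41.6 to 66.9 CPM. Summed monocyte and macrophage markers (8 genes) did not overlap, at 49.5 to 62.0 CPM against 67.7 to 109 with Py230. Of these 8, 4 were tested and 2 had a log2 change above 0 (median of the 4, 0.18). Csf1r was called higher (log2 fold change 1.49, SE 0.25, edgeR adjusted p = 0.00416), and DESeq2 called Cd68 as well. In the stromal libraries Csf1r had its highest level in the LepR mesenchymal-like cluster. None of these markers was at 0 in all libraries, and their part in the Mmp9 levels was not tested.

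Mmp14 (ENSMUSG00000000957) sits in the cell membrane and, with Timp2 as a bridge, activates the precursor of Mmp2. Its libraries ran from 223 to 284 CPM without and 273 to 320 CPM with a tumour, with means of 254 ± 28.6 and 298 ± 19.5 (SD, n = 4 each). The log2 difference of 0.23 (SE 0.10) had an edgeR adjusted p of 0.287. Mmp3 (ENSMUSG00000043613), stromelysin-1, which also activates other MMPs, had 50 reads in all and was not tested. Its counts were 0, 3, 14 and 1 reads in tumour-free replicates 1 to 4 and 2, 2, 17 and 11 with Py230.

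The inhibitors were not called. Timp3 (ENSMUSG00000020044), which binds to the matrix and also inhibits ADAM and ADAMTS proteases, had 120, 108, 61.6 and 49.4 CPM in tumour-free replicates 1 to 4 and 98.5, 133, 160 and 163 CPM with Py230. Py230 replicate 1 lay below tumour-free replicates 1 and 2. The log2 difference was 0.71 (SE 0.29, edgeR adjusted p = 0.275), with 1 call in 14 alternatives, that without a filter on low counts (adjusted p = 0.00184). Timp1 (ENSMUSG00000001131), a soluble inhibitor of most MMPs, had means of 16.6 ± 4.18 and 22.1 ± 4.70 CPM (SD, n = 4 each; adjusted p = 0.367 by edgeR). Timp2 (ENSMUSG00000017466) had 233 ± 22.5 and 231 ± 23.7 CPM (SD, n = 4 each), a log2 difference of -0.01 (SE 0.11, edgeR adjusted p = 0.980). Timp1 lies within Syn1 and Timp3 within Syn3, each on the opposite strand; Timp3 shares 1733 exonic bases with Syn3, whose mean was 2.99 ± 1.37 CPM without and 2.48 ± 1.94 with a tumour (SD, n = 4 each).

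**Figure D2:**
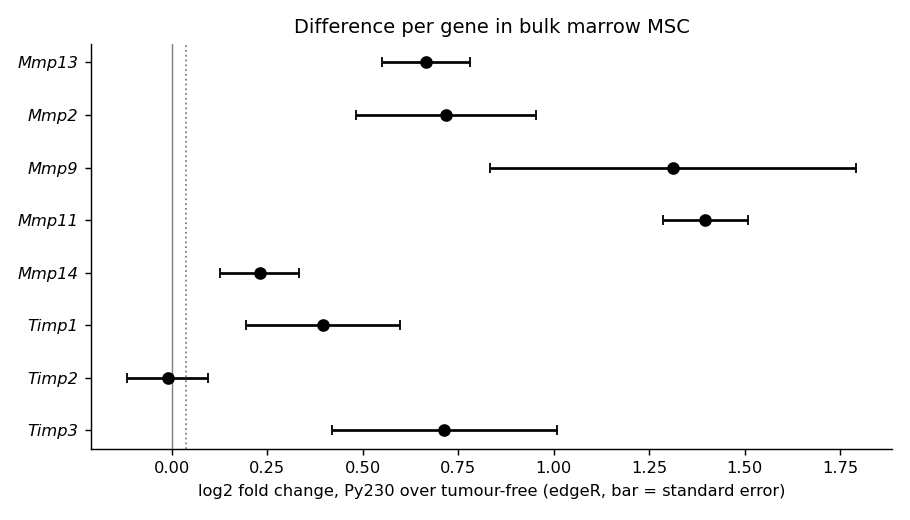
Log2 fold change of the 8 tested genes in bulk MSC (x axis, Py230 over tumour-free; points are edgeR estimates, bars 1 standard error, the dotted line the median of all tested genes at 0.04). Mmp11 is farthest to the right at 1.40 and Timp2 lies at -0.01.

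Among genes that act on the same matrix, the changes in bulk were mixed. Of 18 other MMP and Timp genes, 10 were tested and 0 called by edgeR, with a median log2 change of -0.27. At an unadjusted p under 0.05, 1 was higher and 2 lower, and DESeq2 called 1 lower, Timp4. Of 28 ADAM and ADAMTS proteases, 26 were tested, and edgeR called 6 lower and 0 higher. The log2 change of 13 of the 26 was above 0 (median of the 26, 0.02), with 1 higher at an unadjusted p under 0.05. Adamdec1, an ADAM-like protease, fell from 21.2 ± 4.71 to 3.77 ± 1.20 CPM (SD, n = 4 each; log2 -2.43, SE 0.24, edgeR adjusted p = 0.000104). The aggrecanase Adamts5 fell from 268 ± 16.2 to 162 ± 36.0 CPM (log2 -0.73, SE 0.14, edgeR adjusted p = 0.00704). Adamts15 (log2 -1.05), Adamts9 (log2 -1.67), Adamts4 (log2 -0.40) and Adamts1 (log2 -0.49) fell as well. Of the fits that left out 1 library, 8 of 8 kept the calls of Adamdec1, Adamts5 and Adamts15, 5 that of Adamts9, 2 that of Adamts1 and 1 that of Adamts4.

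Of 25 activators and inhibitors of MMPs, 20 were tested. Serpine2, which inhibits proteases of the plasminogen activation route, rose from 984 ± 56.1 to 1630 ± 190 CPM (SD, n = 4 each; log2 0.73, SE 0.11, edgeR adjusted p = 0.00189). The proprotein convertase Pcsk5 fell (log2 -0.45, SE 0.10, adjusted p = 0.0188). Leaving out 1 library kept the call of Serpine2 in 8 of 8 fits and that of Pcsk5 in 3. Among 21 matrix substrates, Lama4, a laminin chain, rose (log2 0.78, SE 0.11, edgeR adjusted p = 0.00113). Acan, the cartilage proteoglycan (log2 -2.24, SE 0.35, adjusted p = 0.00227), and Nid1, a basement membrane linker (log2 -0.40, SE 0.10, adjusted p = 0.0413), fell. Nid1 kept its call in 1 of 8 fits that left out a library. Of 15 transcription factors known to act at MMP promoters, 0 were called by edgeR or DESeq2, and 3 were higher at an unadjusted edgeR p under 0.05. Of 15 genes that mark cell handling, the heat shock genes Hspa1a (log2 1.05) and Hspa1b (log2 1.35) were called higher, with edgeR adjusted p of 0.0217 and 0.0263, and kept in 3 and 4 of the 8 fits.

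In the stromal libraries, the authors' 6 clusters separated the members by cell type. Cluster 0 held 977 WT and 2242 PyMT cells and was LepR mesenchymal-like, with all 8 LepR markers at their highest there. So were 5 of 6 erythroid markers, 4 of 10 neutrophil markers (S100a8, S100a9, Elane and Mpo) and 3 of 7 pericyte markers, and the erythroid markers summed there to 364 CPM in the WT and 82.0 in the PyMT library. Cluster 1 was tendon-like (441 and 367 cells; Fmod, Chad and Thbs4 among its leading genes, with 4 cartilage markers, among them Comp and Acan, also highest there) and cluster 2 fibroblast-like (559 and 346 cells; 6 of 8 fibroblast markers highest). In cluster 1, 3 of 7 pericyte markers (Rgs5, Acta2 and Cspg4) were highest as well. Cluster 3 was sinusoidal endothelial-like (55 and 120 cells), with 3 of 7 sinusoidal markers highest there (Flt4, Stab2 and Stab1). Another 3 of the 7 (Cdh5, Pecam1 and Kdr) were highest in cluster 4. That cluster was named capillary endothelial-like (95 and 61 cells), with 8 of 9 arterial or capillary markers highest there. Cdh5 and Pecam1 are on both lists. Cluster 5 was osteoblast-like (63 and 55 cells), though the cartilage collagen Col2a1 was among its leading genes. With 1 library per genotype there is no test between genotypes, and the 95% intervals cover counting error only. A ratio was taken where a member had at least 20 UMIs over both libraries and some in each, which held for 37 of 54 pairs of member and cluster.

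**Figure D3:**
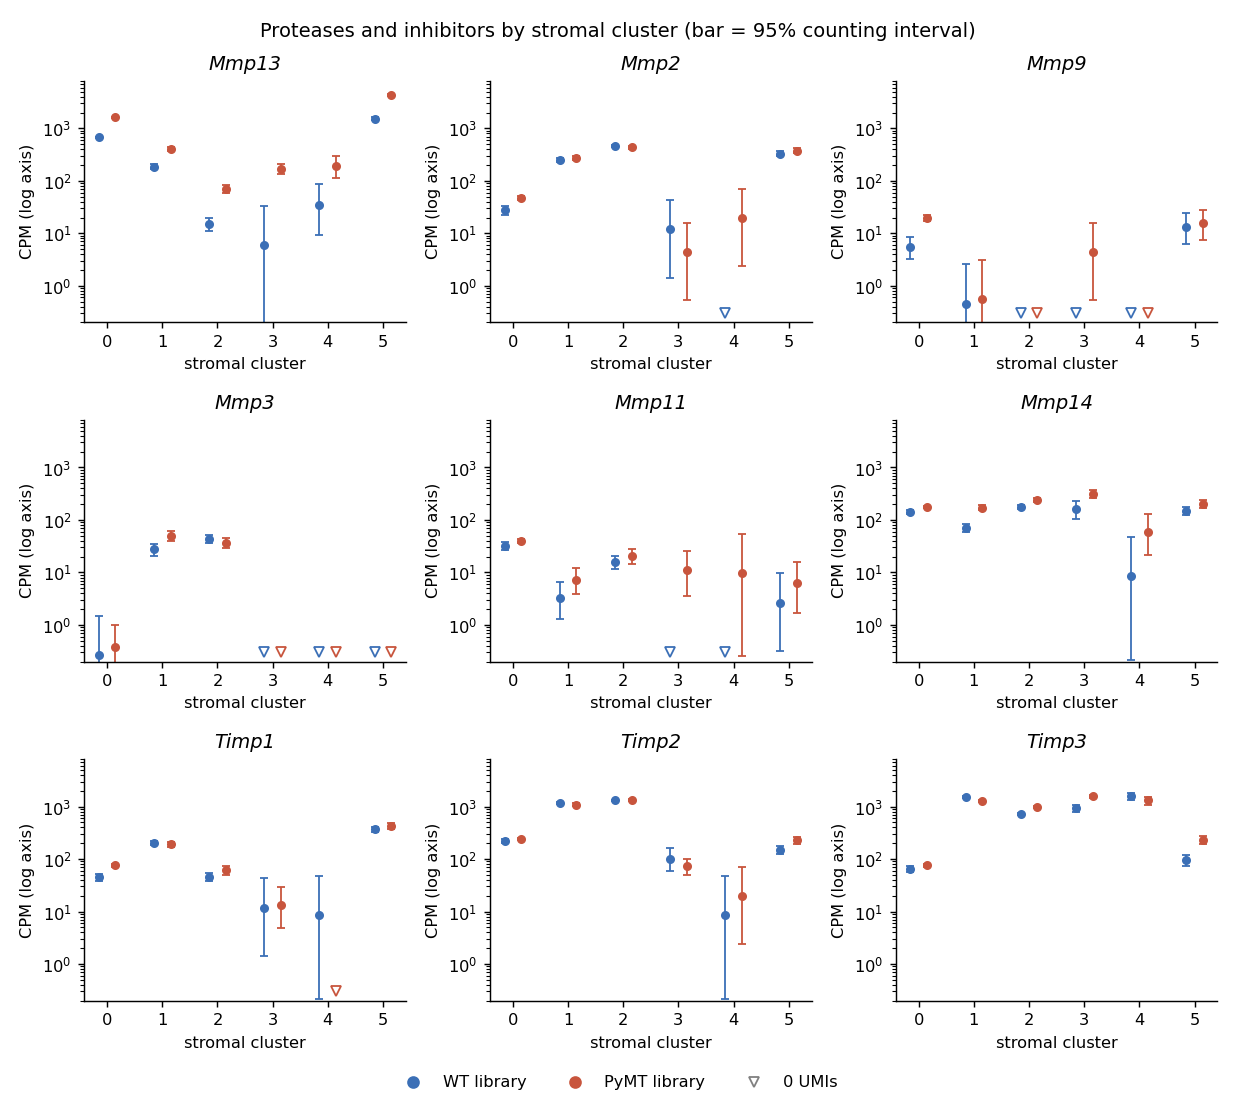
Level of each gene (y axis, CPM of summed UMIs on a log axis) by stromal cluster (x axis, 0 to 5) in the WT and PyMT libraries; bars are 95% Poisson intervals and open triangles mark 0 UMIs. Mmp13 has its highest points in clusters 5 and 0, Timp2 in clusters 2 and 1, and Timp3 is low in clusters 0 and 5.

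Mmp13 was an RNA of osteoblast-like and LepR mesenchymal-like cells. In the WT library it stood at 1525 CPM in cluster 5, 673 in cluster 0, 187 in cluster 1, 34.3 in cluster 4, 14.9 in cluster 2 and 5.93 in cluster 3. The order of the first 3 was clear of counting error, and the intervals of clusters 4, 2 and 3 overlapped from one to the next. In the PyMT library the same clusters stood at 4307, 1625, 403, 188, 70.8 and 170 CPM. The summed level was higher in the PyMT library in each cluster, though clusters 2, 3 and 4 held few UMIs. The log2 ratio was 1.27 (95% interval 1.21 to 1.33) in cluster 0 and 1.10 (0.93 to 1.28) in cluster 1, and the level in cluster 5 was 2.82-fold higher (95% interval 2.64 to 3.03). In cluster 1 the ratio was 0.61 with each cell thinned to 1500 UMIs and 0.48 as a mean of per-cell CPM.

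Transcripts of Mmp13 were unevenly spread over cells. In cluster 0, 47.4% of WT and 66.4% of PyMT cells held a UMI, or 34.9% and 50.5% after each cell was thinned to 1500 UMIs. In cluster 5 a cell with any Mmp13 held 41.0 UMIs on average in the WT and 82.0 in the PyMT library. In cluster 1, 6.58% of WT and 14.4% of PyMT cells held 14.1 and 13.6 UMIs each. One WT cell of cluster 0 held 434 of its 2494 UMIs, and without the top cell of each library the ratio there was 1.52 (1.46 to 1.59).

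In the fibroblast-like and endothelial-like clusters the Mmp13 signal was thin. Cluster 2 had 49 UMIs in the WT and 147 in the PyMT library, of which 1 cell held 52. Cluster 3 had 1 and 77, of which 1 cell held 37. Cluster 4 had 4 and 19, of which 1 cell held 17, and without the top cell of each library its levels were 26.1 CPM (WT) and 21.1 (PyMT), the other way round. The levels were set beside those of 4 genes high in cluster 0 (Lepr, Adipoq, Grem1 and Esm1), each as a percentage of its own level in cluster 0. Mmp13 in cluster 2 read 2.21% in the WT and 4.36% in the PyMT library, within the range of the 4 genes (1.19% to 6.39% and 1.49% to 9.26%). In cluster 4 it read 5.09% in the WT library, below the 6.34% of Lepr, and 11.6% in the PyMT library, above the 4 genes (6.20% to 10.6%). In cluster 3 it read 0.880% in the WT library, against 2.80% to 6.17%. Its 10.5% in cluster 3 of the PyMT library lay just below Lepr (267 against 2429 CPM) and above Adipoq (4.02%), Grem1 (5.99%) and Esm1 (7.84%). In cluster 1, at 27.8% and 24.8%, Mmp13 stood above all 4 genes in both libraries (at most 13.4% and 19.7%). Median depths were 5655 UMIs per cell (WT) and 5206 (PyMT) in cluster 2, 2750 and 3550 in cluster 3, 1116 and 1315 in cluster 4, and 3591 and 4422 in cluster 0. No difference between genotypes is read for Mmp13 in clusters 2, 3 and 4.

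Immediate-early and heat shock genes that mark cell handling were also higher in the PyMT library. Of 15 such genes, 12 were at least 1.5-fold higher in cluster 0, 14 in cluster 1, 13 in each of clusters 2, 3 and 5, and 5 in cluster 4, with median log2 ratios of 0.42 to 1.10. Of the 15 transcription factors of MMP promoters, among them Fos and Jun, 5 to 8 per cluster were at least 1.5-fold higher and 0 lower. Their part in the Mmp13 levels was not tested.

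Mmp9 was a minor RNA, found mostly in cluster 0. It had 20 WT and 206 PyMT UMIs in cluster 0, or 5.40 and 19.7 CPM (log2 ratio 1.87, 1.20 to 2.61). Its share of cells with a UMI there was 1.64% and 5.98%. Cluster 5 had 10 UMIs in each library, of which 1 cell held 9 in the WT and 5 in the PyMT library, and without these cells it stood at 1.35 and 7.85 CPM. Clusters 1 to 4 together had 1 in the WT and 3 in the PyMT library. The 10 neutrophil markers, 4 of which had their highest level in cluster 0 and none of which was at 0 there, summed to 39.7 CPM in the WT and 60.5 in the PyMT library in cluster 0. The 7 osteoclast markers, 2 of them at 0, summed to 134 and 160 CPM. Their part in the Mmp9 level was not tested.

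Mmp2 was highest in the fibroblast-like cluster 2, at 459 CPM in the WT and 437 in the PyMT library. Cluster 5 followed at 332 and 378 CPM, cluster 1 at 252 and 274, and cluster 0 at 27.3 and 46.6. The ratio was clear of 0 in cluster 0 (log2 0.77, 0.46 to 1.10). In clusters 1, 2 and 5 the intervals held 0, with ratios of 0.12, -0.07 and 0.19. The endothelial-like clusters had at most 2 UMIs of Mmp2 in a library.

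Mmp14 was spread more evenly. The WT levels were 143 CPM in cluster 0, 70.0 in cluster 1, 176 in cluster 2, 160 in cluster 3 and 149 in cluster 5, and the PyMT levels were 179, 173, 243, 318 and 204. All 5 were higher in the PyMT library beyond counting error, most in cluster 1 (log2 ratio 1.30, 1.02 to 1.59) and cluster 3 (0.99, 0.39 to 1.64). Thinning each cell to 1500 UMIs gave 0.47 (-0.41 to 1.42) in cluster 3. The ratio of 0.45 in cluster 5 turned to -0.22 (-1.29 to 0.82) by the same thinning.

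Mmp11 had 119 WT and 419 PyMT UMIs in cluster 0, or 32.1 and 40.0 CPM (log2 ratio 0.32, 0.02 to 0.62). In cluster 2 it stood at 15.8 and 20.2 CPM (0.36, -0.26 to 0.97; -0.59 after thinning), and elsewhere it had at most 13 UMIs in a library. Mmp3 had 60 and 90 UMIs in cluster 1 and 144 and 76 in cluster 2, with at most 4 in cluster 0 and 0 in clusters 3, 4 and 5. One PyMT cell held 46 of the 90. The ratio of 0.87 in cluster 1 fell to 0.10 (-0.52 to 0.71) without the top cell of each library.

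The levels of all 3 inhibitors were higher in the tendon-like cluster 1 than in the LepR mesenchymal-like cluster 0. Timp2 stood at 1323 CPM in cluster 2 and 1183 in cluster 1 of the WT library, against 221 in cluster 0. The PyMT levels were 1320, 1095 and 244 CPM, and the ratios of -0.00 (-0.07 to 0.07), -0.11 (-0.20 to -0.03) and 0.14 (0.02 to 0.25) were small. A larger ratio was seen in cluster 5, at 149 and 227 CPM (0.61, 0.25 to 0.98).

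Timp3 was an RNA of endothelial-like, tendon-like and fibroblast-like cells. In the WT library it stood at 1577 CPM in cluster 4, 1509 in cluster 1, 925 in cluster 3, 722 in cluster 2, 94.3 in cluster 5 and 63.5 in cluster 0. The intervals of clusters 4 and 1 overlapped, and those of clusters 5 and 0 did not. The PyMT levels were 1307, 1262, 1564, 986, 232 and 76.2 CPM in the same order. Timp3 was lower in the PyMT library in cluster 1 (log2 ratio -0.26, -0.34 to -0.18) and higher in clusters 2 (0.45, 0.36 to 0.54), 3 (0.76, 0.51 to 1.02) and 5 (1.30, 0.88 to 1.72).

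Timp1 was highest in cluster 5, at 371 CPM in the WT and 426 in the PyMT library, and next in cluster 1, at 200 and 190. The ratio in cluster 5, 0.20 (-0.04 to 0.45), was 0.39 (0.11 to 0.67) without the top cell. In cluster 0 it stood at 45.1 and 76.3 CPM (log2 ratio 0.76, 0.52 to 1.01). In cluster 2 a ratio of 0.42 (0.07 to 0.78) fell to 0.08 (-0.32 to 0.48) without the top cell, which held 36 of 126 PyMT UMIs.

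**Figure D4:**
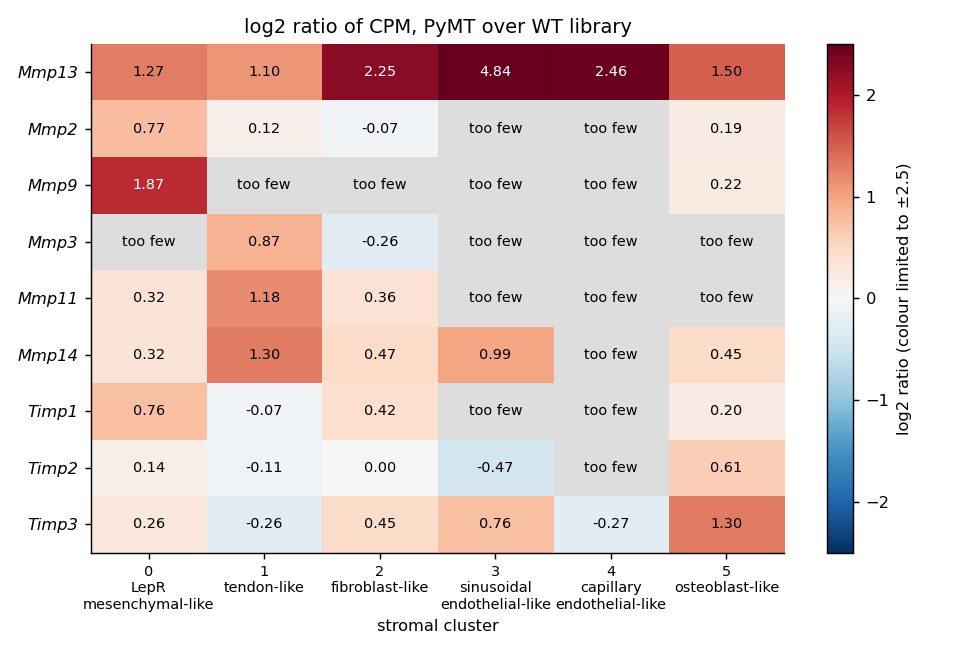
Log2 ratio of CPM, PyMT over WT library, for each gene (rows) and stromal cluster (columns); grey fields had too few UMIs, and the colour scale ends at 2.5. The Mmp13 row is above 1 throughout, though clusters 2, 3 and 4 rest on few UMIs, and the lowest field is Timp2 in cluster 3 at -0.47.

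Over the 37 ratios, 29 were above 0, 23 had an interval above 0 and 2 an interval below it (Timp2 and Timp3 in cluster 1). In cluster 0, 4 of 8 members were at least 1.5-fold higher, against 12.1% of all genes with enough UMIs. The counts were 4 of 8 in cluster 1 (background 17.3%), 1 of 8 in cluster 2 (11.2%), 3 of 4 in cluster 3 (27.2%), 1 of 2 in cluster 4 (18.2%) and 3 of 7 in cluster 5 (24.6%). No member was 1.5-fold lower in any cluster, where the backgrounds were 7.44%, 5.65%, 5.92%, 10.5%, 16.7% and 8.44% in clusters 0 to 5. Median ratios of the members were 0.54, 0.49, 0.39, 0.87, 1.09 and 0.45 in clusters 0 to 5, and those of all genes 0.08, 0.16, 0.08, 0.16, 0.02 and 0.22. These libraries were used in choosing the members, and nothing is read from the counts.

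The distribution of transcripts over clusters also follows the cells each library holds. Cluster 0 held 60.7% of the Mmp13 UMIs of the WT library and 81.9% of those of the PyMT library. It held 64.5% and 94.1% of the Mmp9 and 66.1% and 86.6% of the Mmp11 UMIs. Cluster 2 held 62.6% and 42.5% of the Mmp2 and 55.2% and 36.8% of the Timp2 UMIs, and cluster 1 held 52.2% and 37.1% of the Timp3 UMIs. The share of cluster 0 went from 16.1% to 51.6% of the Timp1 UMIs and from 37.8% to 63.1% of the Mmp14 UMIs.

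Of 17 other MMP and Timp genes in the stromal tables, 7 had enough UMIs for a ratio in cluster 0, with 2 at least 1.5-fold higher and 2 lower. Timp4, named after its values were seen, was an RNA of the capillary endothelial-like cluster 4, at 1320 CPM in the WT and 416 in the PyMT library (log2 ratio -1.67, -2.19 to -1.17). Its log2 ratio was -2.19 (-2.69 to -1.70) in cluster 0. Of the ADAM and ADAMTS proteases, 19 of 28 had a ratio in cluster 0, with 1 at least 1.5-fold higher and 3 lower. Adamdec1 there went from 42.7 to 8.02 CPM (-2.41, -2.81 to -2.02) and Adamts15 from 13.8 to 6.11 (-1.17, -1.73 to -0.61). Adamts9, also lower in bulk, went from 129 to 106 (-0.28, -0.44 to -0.12). Adamts1, Adamts4 and Adamts5, which fell in bulk, were instead higher in the PyMT library in cluster 0. Adamts1 stood at 836 and 1252 CPM (0.58, 0.53 to 0.64) and Adamts5 at 254 and 366 CPM (0.53, 0.42 to 0.63). Adamts4 stood at 82.1 and 100 CPM (0.29, 0.10 to 0.48). Among the activators and inhibitors, Serpine2 went from 2359 to 3739 CPM in cluster 0 (0.66, 0.63 to 0.70) and Pcsk5 from 39.4 to 22.5 (-0.81, -1.11 to -0.50).

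Sums over the whole stromal library went another way than the clusters for several members. Cluster 0 held 36.2% of WT and 67.4% of PyMT UMIs, and cluster 2 held 32.2% and 13.4%. Over all kept cells, Mmp2 went from 236 to 137 CPM (log2 ratio -0.78), Timp2 from 772 to 479 (-0.69) and Timp3 from 618 to 393 (-0.66). With the clusters of the PyMT library weighted by their share of WT UMIs, the ratios were 0.05, -0.01 and 0.12. For Mmp13 the ratio was 1.73 as found and 1.34 at the WT makeup, and for Mmp9 2.22 and 1.48. Mmp11 gave 0.82 and 0.41, and Mmp14 0.48 and 0.55. Mmp3, at 20.1 CPM in the WT and 10.9 in the PyMT library, gave -0.87 and 0.18, and Timp1 -0.02 and 0.24. The cluster shares come from 1 library per genotype and may depend on the sort, whose gates are unknown here.

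**Figure D5:**
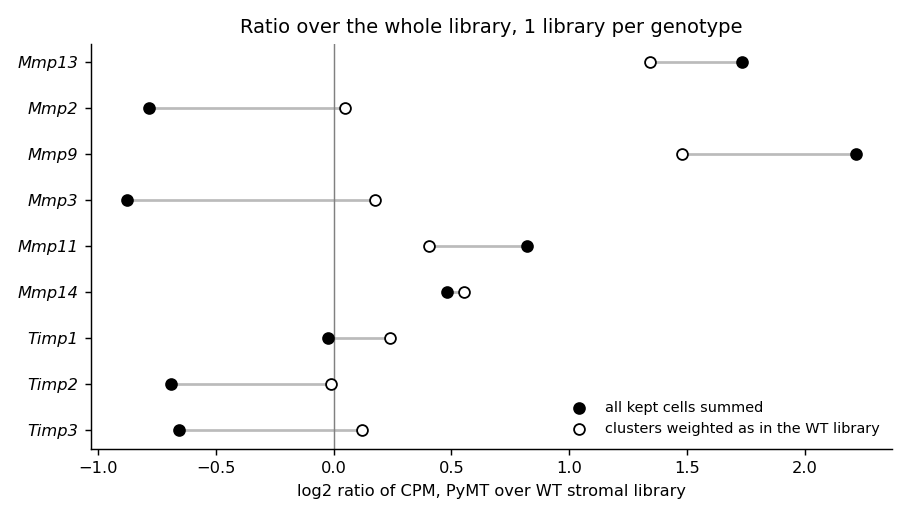
Log2 ratio of CPM over all kept stromal cells (x axis, PyMT over WT library) for each gene, with all cells summed (filled points) and with the clusters weighted as in the WT library (open points). Mmp2, Timp2 and Timp3 move from -0.78, -0.69 and -0.66 to 0.05, -0.01 and 0.12, and Mmp13 stays above 1.

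Profiles over the 12 sums of cluster and library were set beside all genes with at least 500 UMIs. By Pearson r of log2(CPM + 10), a description in which clusters share a library, Mmp13 was most like Runx2 (r = 0.94), Sdk2 (0.93) and Pdgfa (0.93). Runx2 encodes the osteoblast RUNX factor. Mmp2 was most like Postn, Lgals1 and Lum (0.96 each), and Mmp11 like Dock10 (0.96), Dnajb4 and Gpc6 (0.95 each). Mmp9 was most like Cdh2, Tpm1 and Stk17b (0.91 to 0.92), Mmp3 like Camk1d, Gpnmb and Meg3 (0.99 each) and Mmp14 like Eid1, Pign and Dvl3 (0.92 to 0.94). Timp1 was most like Ckb, Omd and Ptprs (0.96 to 0.97), Timp2 like Rhoq, Htra3 and Scpep1 (0.97 to 0.98) and Timp3 like Galnt15, Sft2d2 and Msn (0.96 to 0.98).

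In HSPC, the 5 members present in the table were low and none was called between PyMT and WT mice. This contrast was not used in choosing them. All 8 markers of HSPC were present, with Cd34 at 651 to 728 and Mpo at 1338 to 4641 CPM in the 4 mice. Of these 8, edgeR called 2 lower in PyMT mice, Kit (log2 -0.73, adjusted p = 0.0233) and Gata2 (log2 -0.70, adjusted p = 0.0416). It called 1 higher, Ly6a (log2 0.79, adjusted p = 0.0169). Of the 8 LepR mesenchymal markers, 3 were in the table, and Lepr stood at 6.24 and 3.05 CPM in WT and 9.60 and 11.2 in PyMT mice. Gas6 went the other way, at 4.13 and 6.51 CPM in WT and 3.20 and 2.70 in PyMT mice (log2 -0.83, SE 0.26). Lpl overlapped between the groups (log2 -0.43, SE 0.38). Of these 3, edgeR called 0 and DESeq2 called Lepr. The part of stromal RNA, or of a different makeup of the HSPC, in the members' levels was not tested. Over 11759 tested genes edgeR called 1.40%, with 0.850% higher in PyMT mice and 0.553% lower. Of the 5 members it called 0, with 0 at an unadjusted p under 0.05, and DESeq2 called 0. The groups of 2 mice did not overlap for Mmp2, Timp2 and Timp3, which was so for 56.0% of all tested genes.

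Timp2 was the highest of the 5 in UMIs, at 28.1 and 28.7 CPM in WT mice 1 and 2 and 26.8 and 23.8 in PyMT mice 1 and 2. Both PyMT values were below both WT values. The log2 difference was -0.16 (SE 0.11, edgeR adjusted p = 0.397). A Timp2 UMI was found in 19.3% and 19.5% of WT cells and 17.8% and 10.8% of PyMT cells, at median depths of 6644, 6768, 7149 and 4257 UMIs per cell. Mmp2 stood at 4.13 and 4.61 CPM in WT and 5.99 and 5.54 CPM in PyMT mice (log2 0.40, SE 0.19, edgeR adjusted p = 0.250). Timp3 stood at 4.29 and 4.61 CPM in WT and 3.76 and 4.26 in PyMT mice (-0.15, SE 0.21, adjusted p = 0.713).

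Mmp11 ranged from 2.38 to 3.50 CPM and Mmp14 from 2.41 to 3.02 CPM over the 4 mice, with overlapping groups. Their log2 differences were 0.00 (SE 0.29, edgeR adjusted p = 0.998) and 0.14 (SE 0.26, adjusted p = 0.784). Between 1.41% and 4.28% of the cells of a mouse held a UMI of Mmp2, Mmp11, Mmp14 or Timp3, a share at which free RNA was not told apart from expression. Among the pathway lists, edgeR called Plaur, the receptor of the urokinase plasminogen activator, higher in PyMT mice (log2 0.54, SE 0.11, adjusted p = 0.04997). It also called the AP-1 subunit Junb higher (log2 1.12, SE 0.15, adjusted p = 0.0230). Junb is also a sign of cell handling, and 14 such genes had a median log2 difference of 0.46, with Junb called by edgeR and Dnajb1, Junb, Hspa1b, Hspa1a and Egr1 by DESeq2. Their part in the Junb level was not tested. No other MMP, Timp, ADAM, ADAMTS or matrix substrate gene of the lists was called in HSPC, with 3 higher and 1 lower at an unadjusted p under 0.05, and 0 called by DESeq2.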

How the data were processed

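Bulk RNA of 8 MSC libraries and single cells of 2 stromal and 4 HSPC libraries were measured. The submitters' processing notes name Trim Galore, STAR 2.5.3a, Cell Ranger 6.0.0 and the build mm10. What counted the bulk reads, with which strand setting and annotation, was not given in the sources used. The deposited tables hold raw read counts per gene (bulk) and raw UMI counts per gene and cell. The authors' metadata give the mitochondrial share of stromal cells as a fraction and that of HSPC as a percent, and the stromal cluster numbers. The bulk symbols come from the deposited annotation, and stromal genes are named by symbol in the files.

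Bulk libraries were grouped by title, and single cells by genotype label. Bulk counts, and HSPC counts summed per mouse, went into edgeR 4.0.16 under R 4.3.3 (TMM, filterByExpr, robust quasi-likelihood, Benjamini-Hochberg adjustment over all tested genes, threshold 0.05) and checked on simulated data. Bulk and HSPC CPM are TMM-normalised, except summed markers, which are plain CPM. Stromal CPM are plain as well, taken over all UMIs of the cluster or cells in that library, with no TMM factor. A stromal cell needed 500 or more genes and less than 10% mitochondrial UMIs, which 2190 of 2508 WT and 3191 of 3563 PyMT cells met. Doublets were not called. UMIs were summed per cluster, with exact 95% Poisson intervals for levels and exact conditional intervals for ratios. The replicate numbers shared by the bulk groups were not taken as pairs.

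A cluster was named where at least 3 markers of a type were at their highest in it in both libraries, a reading of "leading markers" chosen after seeing the data. Clusters 0, 1 and 4 met this for further types as well. All 9 members are reported. From each list, up to 8 genes with an adjusted p under 0.05 were named, in order of p, and for each member with at least 200 UMIs the 3 genes of most similar profile. The members and lists were chosen with earlier results of these data known. Alternatives were DESeq2 1.42.0, RLE factors, library totals, no filter, a replicate block and leaving out libraries; for stromal cells, all deposited cells, thinning, per-cell means and leaving out cells of high UMI count. Chosen after seeing the data were leaving out 2 libraries with few genes together, and the top cell of each member. Mmp3, Mmp9, Mmp13 and Timp1 in HSPC were not analysed here, and 1 gene of the pathway lists is not reported here. Intervals cover counting error only.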

Additional observations from a re-analysis of the deposited data

Results flagged for a closer look

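Mmp11 in tumour-free replicate 3 stood at 24.0 CPM, away from the other 3 tumour-free libraries (27.6 to 28.3 CPM). It was the 1 of 18 sets of 4 bulk libraries (9 members in 2 groups) with a library that far out by Dixon's test, and chance gives about 1 in 20. The level was still far below the lowest Py230 library (62.8 CPM).

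Timp3 differed in direction between stromal clusters. The log2 ratio of the PyMT over the WT library was -0.26 in the tendon-like cluster 1, against 0.26 in cluster 0, 0.45 in cluster 2, 0.76 in cluster 3 and 1.30 in cluster 5, each with a counting interval that leaves out 0. Timp2 did so as well, with -0.11 in cluster 1 against 0.14 in cluster 0 and 0.61 in cluster 5. These differences between clusters were not tested, since there is 1 library per genotype.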

How the results depend on the processing

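In bulk, 324 genes were higher and 447 lower. The counts were 176 and 237 with the replicate number as a block, 134 to 304 and 230 to 426 when 1 library was left out, and 171 higher without both libraries of fewest genes (tumour-free replicate 1 and Py230 replicate 3). The deviations of same-numbered libraries correlated at -0.39, -0.13, -0.20 and 0.02, and those of differently numbered ones at -0.48 to 0.52. The highest value joined tumour-free replicate 1 and Py230 replicate 3, the libraries of fewest genes. Such correlations also follow library quality, so they cannot decide whether the numbers pair libraries. The block gave Mmp2 an adjusted p of 0.0345 in edgeR and changed the call of no other member. Mmp11 and Mmp13 kept their direction and call in all 14 alternatives, and Mmp14 and Timp1 were called in 0 of 14. Timp2 changed sign in 3 of 14 and was called in none. The median of all genes moved from 0.04 to 0.02 (RLE) and 0.09 (library totals). In HSPC, 100 genes were higher and 65 lower with edgeR, against 466 and 159 with DESeq2, and 100 to 1135 and 84 to 797 when 1 mouse was left out, which leaves a lone sample assumed to vary like the other group. No member was called in any of these fits. In stromal cells, 16 member ratios were 1.5-fold or more higher and 0 lower; thinning to 1500 UMIs made 1 lower and turned Mmp14 in cluster 5 from 0.45 to -0.22. The other stromal settings left 12 to 15 higher and 0 lower. The cause of these shifts was not tested. Depth limits Mmp3, with at most 17 reads in a bulk library, and every member in the endothelial-like clusters except Timp3 and, in cluster 3, Mmp14.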
